A study of Mus musculus with 577 samples.

Results

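The growth factors that mouse oocytes send to granulosa cells, and the receptors and SMAD proteins that read them, were followed through single-cell transcriptomes taken from ovarian sections. The set held the 3 ligand genes Gdf9, Bmp15 and Bmp6, the 4 receptor genes Bmpr2, Bmpr1a, Bmpr1b and Tgfbr1, and the 2 SMAD genes Smad2 and Smad3. Its members were chosen by gene symbol, and all 9 of the 22060 protein-coding genes counted in the 8 gene tables matched 1 row each. The rule itself used no measured value.

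RNA was measured in 577 labelled samples of mouse ovary and mouse embryonic stem cells (mESCs), most of them single cells isolated by laser capture microdissection. Ovaries came from 8-week-old females, were snap-frozen, and were sectioned, fixed in alcohol and stained, and the labels named no strain, genotype or individual animal for them. Most captured cells were lysed with DRaqL, a method that takes RNA from a captured cell without purification, before cDNA was amplified by SC3-seq, by the SMART-Seq v4 3′ DE kit or by Smart-seq2. DRaqL was not used for LCM-seq, for dissociated cells or for one set made with the kit. With DRaqL-SC3-seq there were 30 oocytes of secondary to antral follicles, 14 oocytes of primary follicles, 31 granulosa cells next to an oocyte (neighboring) and 26 granulosa cells away from it (non-neighboring). The SMART-Seq v4 kit was used without DRaqL on 11 secondary-antral and 7 primary oocytes and on 17 neighboring and 17 non-neighboring granulosa cells. With DRaqL it was used on 9 secondary-antral and 6 primary oocytes and on 20 and 19 granulosa cells. Granulosa cells alone were profiled by LCM-seq (17 neighboring, 20 non-neighboring) and by DRaqL-Smart-seq2 (15 and 19). Sections fixed in formalin for 24 h, with a protease step before Smart-seq2, gave 7 secondary-antral oocytes, 5 primary oocytes and 12 granulosa cells of each position. From 1 mouse, one ovary was laser-captured (8 oocytes, 35 neighboring and 35 non-neighboring cells) and the other was dissociated (14 oocytes labelled as grown, 14 neighboring and 21 non-neighboring cells). Per the study's methods, the dissociated cells came from cumulus-oocyte complexes. Their classes were cells attached to an oocyte and other cells of the complexes, not positions seen in a section. Further samples were 7 pools of 10 neighboring and 7 pools of 10 non-neighboring cells, 7 bulk granulosa samples, 2 serial sections from each of 8 oocytes, and 45 fresh and 36 laser-captured mESCs grown in 2iLIF. A further 3 granulosa cells of DRaqL-SC3-seq, deposited apart as cells of mixed profile, entered no main comparison. No deposited cell of the other sets was left out on that ground, and the study found such profiles among the dissociated granulosa cells. The laser-captured oocyte profiles came from sections, so each library held a slice of an oocyte rather than a whole cell.

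GDF9 and BMP15 are secreted proteins of the transforming growth factor β superfamily that oocytes make, and both are needed for normal follicle growth and female fertility. They are cleaved from larger precursors by proprotein convertases and bind a pair of type II and type I receptor kinases on granulosa cells. BMPR2 is the type II receptor for both. GDF9 signals through the type I receptor TGFBR1 (ALK5) to SMAD2 and SMAD3, whereas BMP-type signals pass through BMPR1A and BMPR1B to SMAD1 and SMAD5, and both branches share SMAD4.

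Gdf9 (ENSMUSG00000018238) lies on the plus strand at chr11:53431023-53437904 in GRCm38, and Bmp15 (ENSMUSG00000023279) on the minus strand at chrX:6314107-6320721. Both proteins are encoded by a pair of exons. The 15 bases on each side of that single coding junction are shown here because reads across it come from spliced RNA. Lower case marks the end of the first coding exon and capitals the start of the second, 5′ to 3′, read from the genome at the GENCODE M21 annotation.
Gdf9-201: gcaaccaggtgacagGACCGCTGCCGATGG
Bmp15-201: taaggcctcccagagGTTCCTGGCATGTAC
The intron removed spanned 2813 bases in Gdf9 (the exons end at base 53433802 and resume at base 53436616) and 3555 bases in Bmp15 (base 6320042 to base 6316486). The 250 bases before the RefSeq start of Bmp15, chrX:6320725-6320974 on the minus strand of GRCm38.p6, are shown because Bmp15 had the largest difference between oocyte stages. Capitals mark the letters TAATTA and TTTATA, the second being TATAAA on the opposite strand.
Bmp15: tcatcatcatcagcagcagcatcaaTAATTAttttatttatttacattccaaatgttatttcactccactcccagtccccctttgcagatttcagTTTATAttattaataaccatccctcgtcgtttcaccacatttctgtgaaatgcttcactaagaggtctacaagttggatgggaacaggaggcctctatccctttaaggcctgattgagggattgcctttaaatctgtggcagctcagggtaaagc
TAATTA began 225 bases before the start and was present on either strand in 5.29% of 32851 RefSeq promoters of 300 bases. TATAAA began 155 bases before the start and was present in 13.6%. The Bmp15 promoter held 41.7% G or C and 2 CpG pairs, against medians of 52.7% and 7 over all promoters. The Bmp6 promoter (chr13, plus strand) held 69.3% G or C and 27 CpG pairs, with CACGTG at 127 bases before the start (7.15% of promoters) and CACCTG at 51 (20.2%). A match gives only the letters and does not show that a factor binds. Of the 9 members, 7 had a promoter sequence in the table used.

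Levels are given as log2 (RPM+1), where RPM is a gene's reads per 1000000 reads on protein-coding genes, with the mean ± SD over cells. Each single-cell group was treated as 1 sample because its cells came from unnamed animals, so no test was made between single-cell groups. The study states that the amplification methods it compared on sections all drew on the same ovary. The sets of libraries are therefore not counted as separate animals, and a direction shared by several sets is not a repeat over animals. A difference of at least 1 on this scale was counted as higher or lower, and the share of all genes past the same limit is given beside the first count. DRaqL-SC3-seq libraries held 873206 to 2338750 reads in oocytes and 162033 to 1429292 in granulosa cells. The 44 DRaqL-SC3-seq oocytes had oocyte-marker sums (Zp2, Zp3, Ddx4, Dppa3, Oosp1, H1foo, Nlrp5, Izumo1r) of 6427 to 27850 RPM, and all 8 markers had reads. The granulosa cells carried 8 granulosa markers at medians of 6573 RPM (neighboring) and 7017 RPM (non-neighboring), against 130 and 471 RPM in secondary-antral and primary oocytes. Every granulosa library of this set also held oocyte-marker reads, with medians of 1365 RPM (183 to 9878) in neighboring and 681 RPM (117 to 7029) in non-neighboring cells, against 720 RPM in fresh and 739 RPM in captured mESCs. The part of those reads in the ligand values given later was not tested. In each mESC group 6 of the 8 markers had reads, and which genes made up the sums of each cell type was not compared.

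The question for oocytes was how the ligands and the signaling machinery differed between primary and later follicles. In DRaqL-SC3-seq, Gdf9, Bmp15, Bmp6, Bmpr2, Bmpr1a and Smad3 were higher by at least 1 in secondary-antral than in primary oocytes, which is 6 of 9 members against 31.7% of the 13245 genes compared. The count was 4 with TMM scaling and 2 as log2 ratios of summed RPM. None was lower by that much, against 15% of genes. The 3 ligands differed by a median of 3.01 and the 6 receptors and SMADs by a median of 0.89, beside a median of 0.30 over all genes.

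Gdf9 had 252 RPM in the lowest primary oocyte, a median of 736 and 5918 in the highest, and 4375, 7744 and 11724 RPM in secondary-antral oocytes. Of the 30 secondary-antral oocytes, 27 lay above every primary oocyte. The means were 12.86 ± 0.30 (n = 30) and 9.85 ± 1.21 (n = 14), a difference of 3.01. Bmp15, the partner of GDF9 in the oocyte, ran from 15.6 RPM through a median of 64.9 to 113.4 RPM in primary oocytes and from 151 through 988 to 1910.2 RPM in secondary-antral oocytes. Its groups did not overlap, which held for 0.725% of genes in this direction. The difference was 4.04 (9.81 ± 0.82 against 5.77 ± 0.91). Bmp6, a BMP that follicles also use, ran from 0 through 20.6 to 298 RPM in primary and from 36.003 through 81.8 to 135 RPM in later oocytes. The primary oocytes therefore spread on both sides of the later ones, and the difference of 1.80 (6.27 ± 0.50 against 4.47 ± 2.41) was 0.19 as a log2 ratio of summed RPM. As a share of mean Gdf9 RPM, Bmp15 came to 4.65% in primary and 13.3% in secondary-antral oocytes, whereas Bmp6 came to 4.50% and 1.06%.

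**Figure D1:**
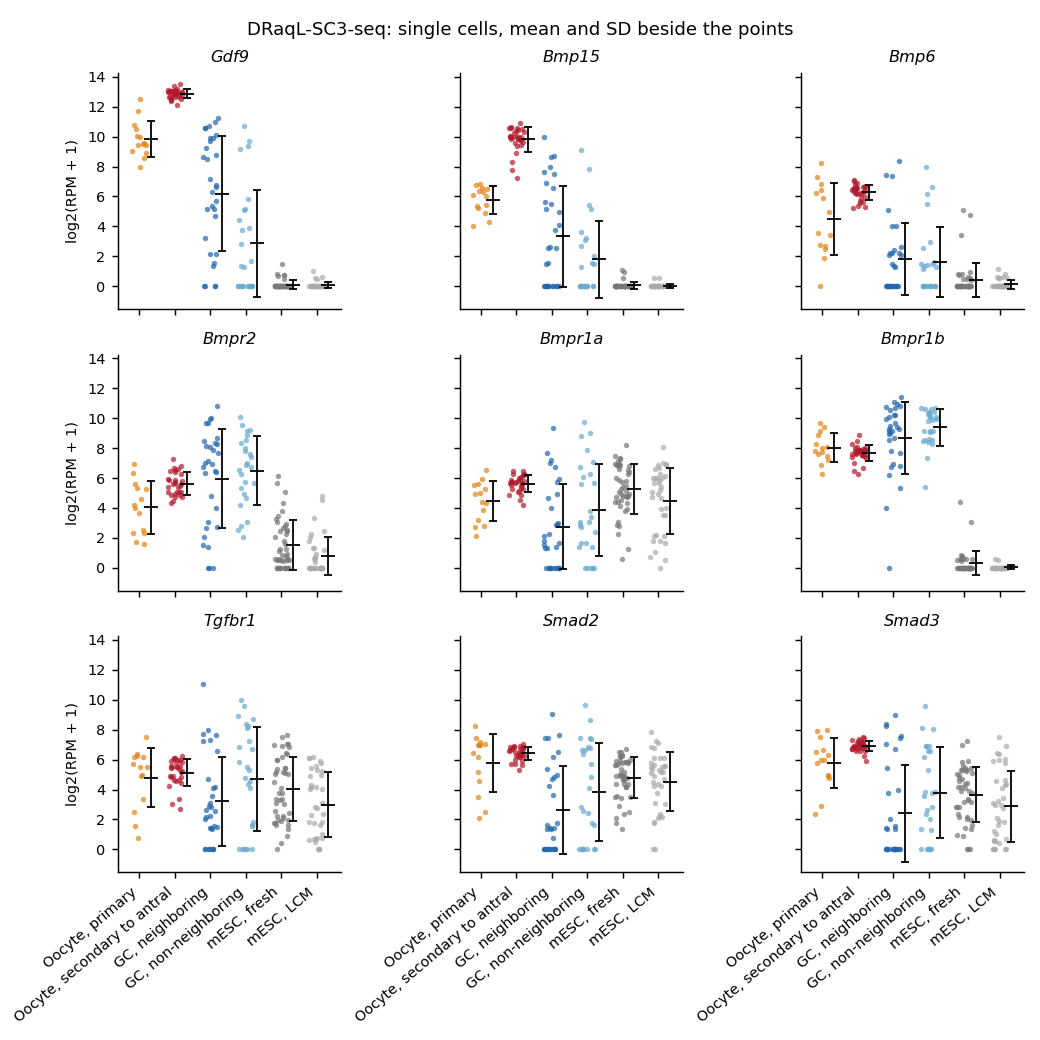
Levels of the 9 members as log2 (RPM+1) in single oocytes and granulosa cells (GC) of DRaqL-SC3-seq and in single mESCs, 1 point a cell, with the mean and SD beside the points. Bmp15 shows no overlap between primary and secondary-antral oocytes, and Gdf9 in granulosa cells spreads from 0 to 2408 RPM.

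The receptors were spread differently. Bmpr2, the type II receptor, averaged 5.62 ± 0.76 in secondary-antral and 4.03 ± 1.74 in primary oocytes, a difference of 1.59. Bmpr1a averaged 5.63 ± 0.55 and 4.46 ± 1.33 (difference 1.17), and Bmpr1b 7.66 ± 0.53 and 8.03 ± 0.96 (difference -0.37). Tgfbr1, the GDF9 type I receptor, averaged 5.13 ± 0.90 and 4.80 ± 1.99, so the groups differed by less than either SD. Smad3 averaged 6.91 ± 0.34 and 5.75 ± 1.67, and Smad2 6.42 ± 0.44 and 5.80 ± 1.93. For all 4 receptors and both SMADs the ranges of the oocyte groups overlapped. All 14 primary oocytes had reads for each receptor and SMAD and 13 of them had reads for Bmp6. Of the other pathway genes described later, 28 were compared between these stages, and 13 were higher and 3 lower by at least 1 (median 0.71, beside 0.30 over all genes). Among them Tgfb2, a further ligand of the superfamily, averaged 7.79 in secondary-antral and 3.06 in primary oocytes.

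The same stages in 3 further sets of libraries gave the ligands in the same order. Gdf9 averaged 12.43 ± 0.43 against 9.30 ± 1.13 with the SMART-Seq v4 kit (n = 11 and 7), 12.25 ± 0.38 against 6.75 ± 2.64 with DRaqL and that kit (n = 9 and 6), and 12.68 ± 0.51 against 9.20 ± 1.49 in formalin-fixed sections (n = 7 and 5). No primary oocyte reached a later one for Gdf9 in these tables, and the same held for Bmp15, beside 4%, 7.17% and 3.87% of genes without overlap in that direction. Bmp15 averaged 10.10 ± 0.52 against 2.80 ± 2.22, 9.95 ± 0.52 against 0.61 ± 1.49, and 11.72 ± 0.46 against 7.01 ± 0.92. With DRaqL and the kit, 5 of 6 primary oocytes had no Bmp15 read. Bmp6 was higher by 3.26, 3.64 and 1.98, with overlap in each of these sets. Over the 4 sets of oocytes the difference ranged from 3.01 to 5.49 for Gdf9, from 4.04 to 9.34 for Bmp15 and from 1.80 to 3.64 for Bmp6.

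The receptors did not keep one direction over the tables. Bmpr2, Bmpr1a, Bmpr1b and Tgfbr1 were lower by 1.20, 2.04, 1.36 and 1.96 in secondary-antral oocytes of formalin-fixed sections, where 4 of 9 members were lower and 4 higher by at least 1, beside 25.4% and 26.8% of genes. In the formalin table Bmpr1a ran from 92.4 to 759 RPM in primary and from 21.2 to 120 RPM in later oocytes. With the kit, alone and with DRaqL, Bmpr1a was higher by 0.91 and 1.59 and Tgfbr1 lower by 0.33 and 0.58. Of the 9 members, 4 were higher and 0 lower by at least 1 with the kit, beside 31.7% and 16.2% of genes, and 4 and 0 with DRaqL and the kit, beside 33.7% and 22.8%. Smad2 was higher in all 4 tables, by 0.44 to 1.20. In formalin-fixed sections the stages shared a library pool but carried different in-line indexes, so stage and index cannot be told apart there. With DRaqL and the kit, the stages were in separate library pools, so stage and library pool cannot be told apart in that set. With the kit alone, 1 of 11 secondary-antral oocytes shared the library pool of the 7 primary oocytes, and it too lay above all of them for Gdf9 and Bmp15.

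**Figure D2:**
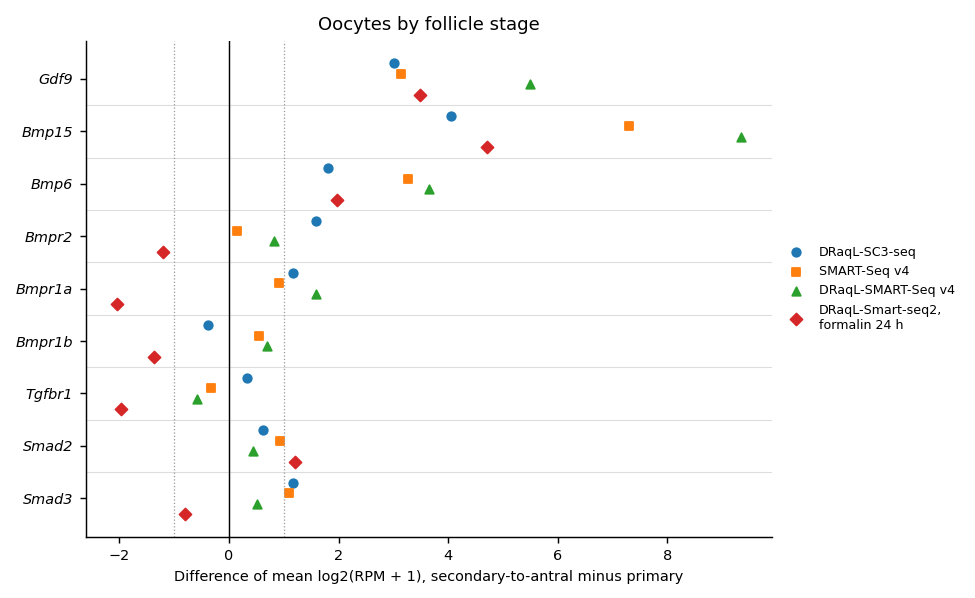
Difference of mean log2 (RPM+1), secondary-antral minus primary oocytes, for each member in each table that holds both stages, with dotted lines at -1 and 1. The 3 ligands lie above 1 in every table, and the receptors lie on both sides of 0.

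RPM shows shares of RNA, not amounts. ERCC spike-in reads, present in 3 of these tables, gave a second scale. Protein-coding reads per ERCC read had medians of 18.7 in primary and 72.4 in secondary-antral oocytes with the kit, 12.7 and 135 with DRaqL and the kit, and 6.85 and 26.3 in formalin-fixed sections. On a scale of log2 (reads per 10000 ERCC reads + 1), 9, 9 and 6 of 9 members were higher by at least 1 in secondary-antral oocytes, and the medians over all genes were 1.50, 2.36 and 1.15. In formalin-fixed sections, the differences of Bmpr2, Bmpr1a, Bmpr1b and Smad3 turned positive on this scale (1.18, 0.19, 0.61 and 1.14), and that of Tgfbr1 was -0.04. Gdf9 was higher by 4.92, 7.97 and 5.22 and Bmp15 by 7.87, 9.57 and 6.30, so both exceeded the median gene on both scales. The alternative by ERCC reads was chosen after the data were seen.

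Serial sections showed how closely the values repeat within an oocyte. Over 8 oocytes, each cut into 2 sections, Gdf9 averaged 13.16 ± 0.20, and sections of the same oocyte differed by a median of 0.21 against 0.26 between oocytes. The medians were 0.23 and 0.42 for Bmp15, and 0.35 and 0.47 for Bmp6. Tgfbr1 varied most among these oocytes (5.20 ± 0.88), with medians of 0.43 within and 0.77 between oocytes. For Bmpr1a, Bmpr1b and Smad2 the sections of 1 oocyte differed more than different oocytes did, with 0.68 against 0.54, 0.41 against 0.31 and 0.56 against 0.34.

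Across the 44 DRaqL-SC3-seq oocytes the levels of Gdf9 and Bmp15 had a Pearson r of 0.86, against 0.53 within the 30 secondary-antral and 0.18 within the 14 primary oocytes. Of 7219 genes with a mean of at least 4, those most like Gdf9 were Fbxw15 (r = 0.970), Npm2 (0.969) and Fbxw24 (0.961). Those most like Bmp15 were Bcl2l10 (0.971), C87977 (0.967) and Omt2a (0.967), and those most like Bmp6 were Ss18l1 (0.894), Ccdc47 (0.845) and Optn (0.839). Npm2 encodes the nucleoplasmin of eggs. These correlations span both stages of the DRaqL-SC3-seq set, whose labels name no library pool, and carry no test. Within the 30 secondary-antral oocytes, r was 0.71, 0.74 and 0.72 for the genes most like Gdf9, in the order given. It was 0.81, 0.86 and 0.83 for those most like Bmp15, and 0.59, 0.17 and 0.13 for those most like Bmp6. Within the 14 primary oocytes, r was 0.86, 0.87 and 0.80 for the Gdf9 genes and 0.90, 0.62 and 0.86 for the Bmp15 genes. For the Bmp6 genes it was 0.90, 0.86 and 0.85 there.

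Reads per exon and per exon junction were available for 5 secondary-antral oocytes. The last exon of Gdf9 (chr11:53436616-53437904, 1289 bases, coding and 3′ untranslated) drew 27097 to 36665 reads, or 96.8% of the gene's exon reads. The last exon of Bmp15 (chrX:6314107-6316486, 2380 bases) drew 3764 to 8577 reads and 99.9%. Per kb of exon and per 1000000 exon reads, medians were 3616 for the last exon of Gdf9 and 425 for that of Bmp15, against 9.13 for that of Bmp6, 22.4 for Smad3, 5.67 for Bmpr1a and 1.85 for Bmpr2. The last exon drew the most reads in all 9 genes, with shares of exon reads from 43.9% in Bmpr1b and 45.8% in Smad2 to 99.9% in Bmp15. Where overlapping exons of a gene are listed apart, a read may be counted again. The last exons run from 810 to 8780 bases, so this scale lowers genes with a long last exon. Reads across exon junctions numbered 44, 87, 172, 46 and 81 for Gdf9 in the 5 oocytes and 0, 2, 25, 8 and 7 for Bmp15. The junction table names transcripts and gives no positions, so these counts are sums over all rows of each gene. How many of these reads crossed the junctions shown above was not checked. Bmpr2, Tgfbr1 and Smad3 had no row there. In 10 mESCs measured in the same way, exon reads were 0 to 62 for Gdf9, 0 to 1 for Bmp15 and 0 for Bmp6.

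The next comparison set ligand-making against receptor-bearing cells. In DRaqL-SC3-seq, 7 of 9 members were higher by at least 1 in the 44 oocytes than in the 57 granulosa cells, and Bmpr2 and Bmpr1b were lower. Oocyte libraries detected more protein-coding genes (medians of 13583 and 13284 against 7313 and 7393), and 61.4% of the 15176 genes were higher and 4.45% lower by that measure. The median gene was higher by 1.57. Against that median, the ligands stood out by size: Gdf9 was higher by 7.23, Bmp15 by 5.89 and Bmp6 by 3.99. Smad3 and Smad2, which carry the GDF9 signal, were higher by 3.49 and 3.04.

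Bmpr1b, a type I receptor of the BMP branch, had the smallest SD of the members over granulosa cells. It averaged 8.67 ± 2.41 in neighboring and 9.39 ± 1.23 in non-neighboring cells, against 7.78 ± 0.71 in oocytes, and 56 of 57 granulosa cells had reads. Bmpr2 averaged 6.21 ± 2.87 in granulosa cells and 5.12 ± 1.37 in oocytes. Bmpr1a and Tgfbr1 were higher in oocytes by 2.00 and 1.13 as means of log values but lower by 0.71 and 1.87 as ratios of summed RPM. In the granulosa cells both genes combined many cells at or near 0 with a few at high levels. Tgfbr1 ran from 0 through a median of 4.99 to 2099 RPM in neighboring cells and from 0 through 32.1 to 1001 RPM in non-neighboring cells.

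Bmpr2 was lower by at least 1 in oocytes in all 6 tables that hold both cell types, with differences from -2.86 to -1.08. Bmpr1b was lower by that much in 4 of 6 tables, and its difference ranged from -2.02 to 0.30. Gdf9 was higher by 5.15 to 8.37, Bmp15 by 5.27 to 8.41 and Smad3 by 1.58 to 4.73. Bmp6 was higher by at least 1 in 5 of the 6 tables and by 0.76 in formalin-fixed sections. With the SMART-Seq v4 kit 7 members were higher and 1 lower by at least 1, beside 64.4% and 3.61% of genes, and with DRaqL and the kit 5 and 2, beside 42.4% and 9.37%. In formalin-fixed sections 3 were higher and 3 lower, beside 46.4% and 7.69%. In the single mouse 5 were higher and 2 lower among captured cells, beside 50% and 9.44%, and 6 and 2 among dissociated cells, beside 52.1% and 14.7%. Per ERCC read, the receptors were no longer lower: Bmpr2 was higher in oocytes by 1.88, 1.11 and 0.51 in the 3 tables with spike-ins, and Bmpr1b by 3.46, 2.52 and 1.06. A pseudocount of 1 on that scale compresses low genes in granulosa cells, whose libraries held medians of 1.13 to 4.34 protein-coding reads per ERCC read.

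**Figure D3:**
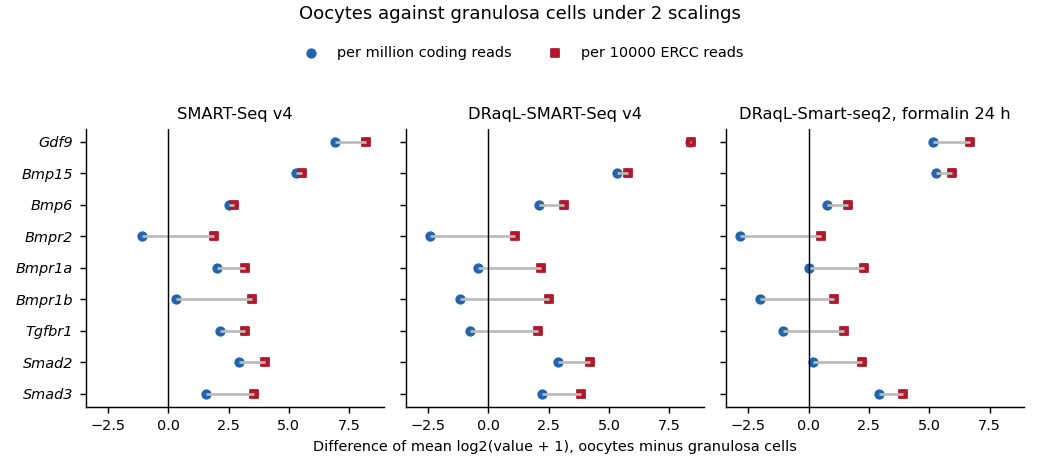
Difference between oocytes and granulosa cells for each member in the 3 tables with both cell types and spike-ins, on log2 (RPM+1) as circles and on log2 (reads per 10000 ERCC reads + 1) as squares, joined by a line. Each square lies to the right of its circle, and those of Bmpr2 cross 0 in all 3 panels.

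Of 45 other pathway genes, 37 were compared, and 16 were higher and 8 lower in oocytes by at least 1 (median 0.20, beside 1.57 over all genes). Among ligands and receptors, Tgfb2 averaged 6.29 in oocytes and 1.05 in granulosa cells, Acvr2b, an activin type II receptor, 4.27 and 0.49, and Amhr2, the receptor of anti-Müllerian hormone, 4.23 and 7.43. Furin, a proprotein convertase, averaged 5.99 and 1.45, and Pcsk5, another one, 3.11 and 4.33. Fst, which encodes follistatin, an antagonist that binds activins, averaged 0.92 and 6.96, and the antagonist gene Twsg1 4.28 and 3.26. The shared Smad4 averaged 7.45 and 6.15, and Smad5 5.67 and 2.53. The SMAD ubiquitin ligases Smurf1 and Smurf2 averaged 4.69 and 1.25, and 6.86 and 5.13, and the co-repressor Ski 8.15 and 5.57. Slc38a3, an amino acid transporter of cumulus cells, averaged 0.55 and 6.41, Npr2, the receptor of C-type natriuretic peptide, 1.26 and 6.16, and the BMP target Id3 4.56 and 6.18.

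A further question was whether granulosa cells beside the oocyte differ in these genes from cells farther out. In the DRaqL-SC3-seq cells, Gdf9 and Bmp15 were higher by at least 1 in neighboring cells, which is 2 of 9 members beside 3.98% of 14011 genes, and Bmpr1a, Tgfbr1, Smad2 and Smad3 were lower, beside 10.5%. For all 9 members the ranges of the groups overlapped. Of 34 other pathway genes compared, 1 was higher and 2 were lower.

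Gdf9 ran from 0 through a median of 96.8 to 2408 RPM in neighboring cells and from 0 through 1.46 to 1659 RPM in non-neighboring cells. Reads were present in 27 of 31 (87.1%, 95% Clopper-Pearson interval 70.2% to 96.4%) and 14 of 26 cells (53.8%, 33.4% to 73.4%). Such intervals treat the cells of a group as independent and do not cover spread between animals, so they make no test between positions. In fresh mESCs, which should lack the gene, 6 of 45 cells (13.3%, 5.05% to 26.8%) had reads at a higher median depth (2068207 reads against 585673 and 544072). Over the summed reads Gdf9 came to 525 RPM (exact Poisson 95% interval 514 to 535) in neighboring and 154 RPM (148 to 161) in non-neighboring cells. These Poisson intervals cover counting error only. The mean levels were 6.20 ± 3.81 and 2.86 ± 3.57, a difference of 3.34 that is smaller than either SD. Bmp15 averaged 3.35 ± 3.37 and 1.79 ± 2.59, and Bmp6 1.81 ± 2.43 and 1.60 ± 2.35. Bmp6 had reads in 16 of 31 and 13 of 26 cells, and in 12 of 45 fresh mESCs.

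In the same cells the oocyte-marker sum was also higher beside the oocyte, at medians of 1365 and 681 RPM. Across neighboring cells the level of Gdf9 correlated with that sum at r = 0.64, Bmp15 at 0.42 and Bmp6 at 0.13 (n = 31), and across non-neighboring cells at 0.53, 0.63 and -0.27 (n = 26). Whether oocyte RNA gave the ligand reads in these cells was not tested. Bmp6 reads without a Gdf9 read were found in 1 of 31 neighboring and 5 of 26 non-neighboring cells.

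Among the receptors and SMADs, Tgfbr1 averaged 3.22 ± 2.97 in neighboring and 4.70 ± 3.47 in non-neighboring cells, and the summed RPM of 157 and 155 hardly differed. Smad3 averaged 2.43 ± 3.24 and 3.80 ± 3.03, and Smad2 2.64 ± 2.94 and 3.84 ± 3.29. Each of these differences was smaller than the SDs. Markers of theca and stroma reached 34.6 RPM in neighboring cells (median 1.52) and 2556 RPM in non-neighboring cells (median 0), and their part in these values was not tested. Bmpr2 depended on which cells were counted. Among cells numbered up to 72 in the labels it was lower by 1.72 beside the oocyte (n = 22 and 20), and among cells numbered above 72 it was higher by 2.86 (n = 9 and 6). Gdf9 was higher in both sets, by 3.60 and 1.49, and its level was higher throughout the second set (8.88 and 7.39 against 5.10 and 1.50).

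Over the 8 single-cell tables, which do not stand for separate animals, Gdf9 was higher in neighboring cells in 8. It was higher by at least 1 in 6, with differences from 0.14 to 5.95. Bmp15 behaved likewise (0.42 to 4.70), and Bmp6 was higher by at least 1 in 3 of 8. The receptors and SMADs took both signs: Bmpr2 from -1.80 to 1.31, Bmpr1b from -1.54 to 0.77, Tgfbr1 from -1.91 to 0.42. Smad2 was higher in 2 tables and lower in 6. LCM-seq gave the widest gap in Gdf9, where Gdf9 averaged 7.41 ± 2.96 and 1.46 ± 2.62 and 11 of 17 neighboring cells lay above every non-neighboring cell. There 3 members were higher and 1 lower by at least 1, beside 16.3% and 6.01% of genes. The counts were 2 and 2 with the SMART-Seq v4 kit, beside 8.62% and 15.1%, and 3 and 1 with DRaqL and the kit, beside 8.26% and 13.6%. They were 3 and 0 with DRaqL-Smart-seq2, beside 11.7% and 7.14%, and 3 and 0 in formalin-fixed sections, beside 18.3% and 10.7%. With DRaqL and the SMART-Seq v4 kit 9 of 20 neighboring and 1 of 19 non-neighboring cells had Gdf9 reads. The smallest gaps in Gdf9 came from the single mouse, at 0.94 for laser-captured and 0.14 for dissociated cells. The gap in dissociated cells sets attached cells against other cells of cumulus-oocyte complexes, so it is not the same contrast as in sections. There 1 member was higher and 1 lower among captured cells, beside 5.7% and 8.25%, and 1 and 4 among dissociated cells, beside 3.68% and 36%. Among dissociated cells the difference was -0.81 in library pools without an oocyte (1.94 ± 3.73 and 2.75 ± 2.00) and 2.69 in pools that also held one (7.75 ± 3.27 and 5.06 ± 2.47). Among captured cells it was 0.83 in pools without an oocyte (4.95 and 4.12) and 1.14 in pools with one (4.97 and 3.83). With the kit (alone or with DRaqL), LCM-seq, DRaqL-Smart-seq2 and formalin-fixed sections the positions carried different in-line indexes, so position and index cannot be told apart there.

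**Figure D4:**
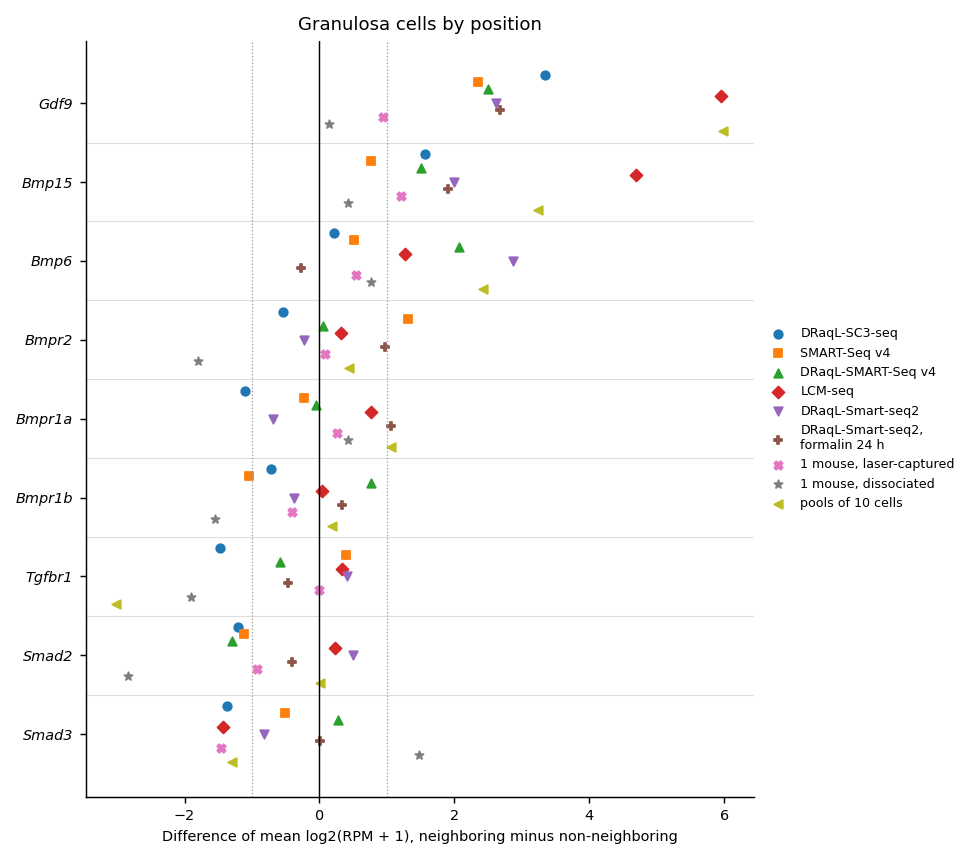
Difference of mean log2 (RPM+1), neighboring minus non-neighboring granulosa cells, for each member in the single-cell tables and the 10-cell pools, with dotted lines at -1 and 1. Gdf9 lies above 0 in all of them, and receptors and SMADs lie on both sides.

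The pools of 10 granulosa cells allowed a test, with 7 pools a position of 3811945 to 8259281 reads. The labels do not say that the pools came from separate animals, so p-values measure only the spread between these samples. In pooled or bulk cells, fewer cells of a type and less RNA per cell cannot be told apart. Gdf9 was the member with an adjusted p under 0.05. Its RPM was 161, 237, 56.8, 899, 1691, 1011 and 64.3 in neighboring pools 1 to 7 and 7.20, 10.99, 0.655, 0.484, 22.2, 8.66 and 0 in non-neighboring pools. Every neighboring pool lay above every non-neighboring pool, as did 0.579% of genes. The log2 fold change was 6.28 ± 1.12 (SE), with an adjusted p of 0.0197 by edgeR's quasi-likelihood test with Benjamini-Hochberg adjustment over 9704 genes. An exact two-sided permutation test over the 3432 splits gave p = 0.000583, the smallest these numbers of pools can give. In all, 44 genes (0.453%) passed, each higher in neighboring pools and 0 lower (0%), and 402 genes had an unadjusted p under 0.05. DESeq2 called 11 genes lower. Without pool number 4, 5 or 6 the adjusted p was 0.0785, 0.0809 or 0.0768, with log2 fold changes of 5.93, 6.30 and 6.16.

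**Figure D5:**
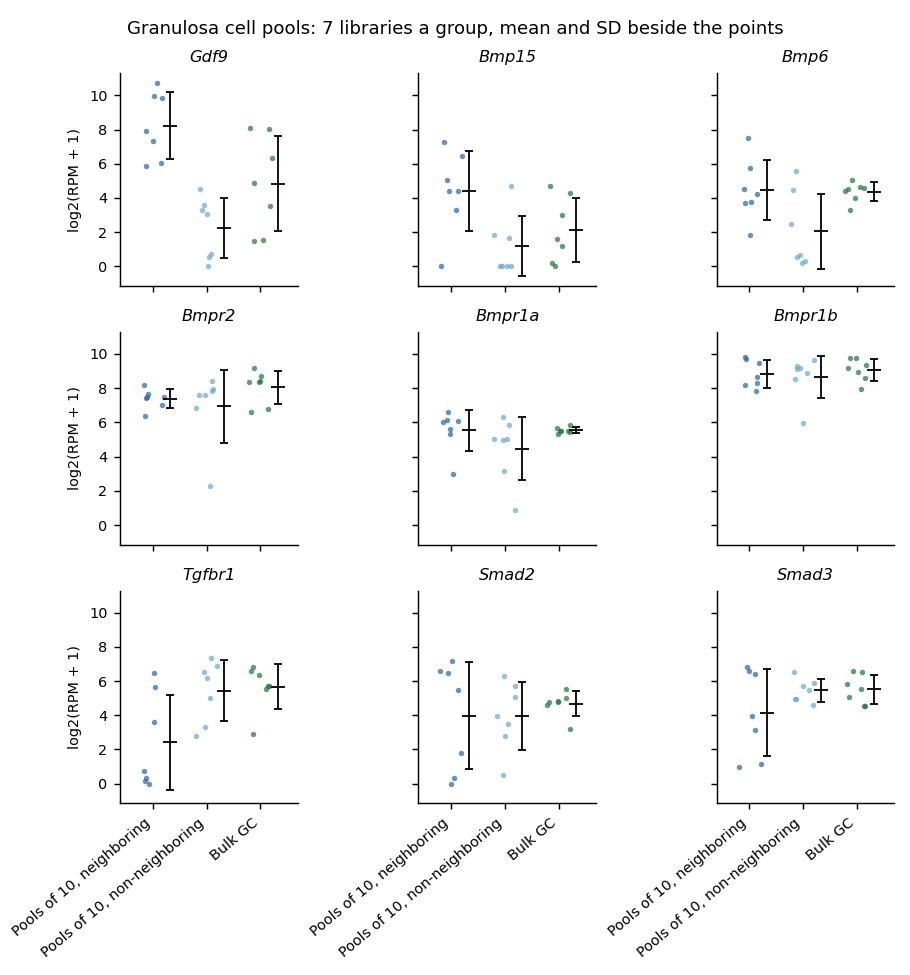
Levels of the 9 members as log2 (RPM+1) in the 10-cell pools of both positions and in bulk granulosa samples, 1 point a library, with the mean and SD beside the points. Gdf9 is the member whose neighboring pools (56.8 to 1691 RPM) all lie above the non-neighboring pools (0 to 22.2 RPM).

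No other member passed in edgeR, which does not show that their values did not differ. Of the 9 members 1 (Gdf9) had an unadjusted p under 0.05 there, and in DESeq2 2 had one and 1 was called. Bmp15 had 20.6, 20.1, 8.80, 31.5, 153, 84.98 and 0 RPM in neighboring pools and 2.64, 24.6, 0, 0, 0, 2.099 and 0 in non-neighboring pools. Its groups overlapped through pool 2 on one side and pool 7 on the other, and its log2 fold change was 3.24 ± 1.70 (adjusted p = 0.998). Bmp6 had 21.9, 18.0, 12.6, 12.1, 2.62, 178 and 52.05 RPM against 0.480, 0.600, 0.131, 21.1, 4.57, 0.262 and 47.5 (1.93 ± 1.32, adjusted p = 0.998). The neighboring pools all exceeded the median non-neighboring pool for Bmp6. Tgfbr1 had 86.9, 49.8, 0.137, 0.680, 0.238, 0 and 11.2 RPM against 92.1, 162, 8.91, 72.2, 115.2, 6.03 and 31.4. So 4 neighboring pools lay below every non-neighboring pool, with a log2 fold change of -1.99 ± 1.32 (adjusted p = 0.998). Exact permutation tests of the log2 levels, made for each of the 9 members, gave unadjusted p-values of 0.0204 for Bmp15, 0.0490 for Bmp6 and 0.0361 for Tgfbr1. The other 5 members had permutation p-values of 0.219 to 0.994.

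The type II receptor gene Bmpr2 and the type I receptor gene Bmpr1b averaged 7.37 ± 0.56 and 8.84 ± 0.81 beside the oocyte and 6.94 ± 2.12 and 8.66 ± 1.23 away from it (n = 7 each). Their log2 fold changes of -0.18 ± 0.58 and 0.08 ± 0.47 were smaller than their SEs, and for Bmpr2 the mean of log2 levels and the fitted fold change had opposite signs. Bmpr1a averaged 5.54 ± 1.20 and 4.47 ± 1.86, Smad2 3.98 ± 3.14 and 3.97 ± 1.98, and Smad3 4.15 ± 2.53 and 5.45 ± 0.66. Of the pathway list, 26 genes were tested and 0 passed in edgeR, with 1 at an unadjusted p under 0.05 (Tgfb3, a ligand named after its values were seen, -3.20 ± 1.24, adjusted p = 0.901) and 0 passing in DESeq2.

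Of the oocyte markers, 3 passed together with Gdf9 in the pools. The 8-marker sum was 881 to 3560 RPM in neighboring and 129 to 727 RPM in non-neighboring pools, without overlap. Zp3 and Oosp1, which encode a zona pellucida protein and an oocyte-secreted protein, had log2 fold changes of 6.23 ± 1.17 and 6.47 ± 1.21 (both adjusted p = 0.0217, edgeR), close to that of Gdf9, and H1foo, the oocyte linker histone, 5.29 ± 1.17 (adjusted p = 0.0474). Dppa3 (5.63 ± 1.31, adjusted p = 0.0690), Zp2 (6.20 ± 1.52, adjusted p = 0.0946), Izumo1r (5.13 ± 1.77, adjusted p = 0.703) and Ddx4 (0.64 ± 0.46, adjusted p = 0.998) did not pass, and Nlrp5 was not tested. Ddx4, a germ cell RNA helicase, averaged 8.96 ± 0.80 in neighboring and 8.40 ± 0.88 in non-neighboring pools and so made up much of the latter sum. Bmp6 came to 7.21% of Gdf9 in neighboring pools, against 1.23% in serially sectioned oocytes. The granulosa-marker sums overlapped (3487 to 9753 and 2447 to 11953 RPM). Markers of theca and stroma summed to 1.21 to 3502 RPM (median 440) in non-neighboring and 0 to 1314 RPM (median 0.412) in neighboring pools, with Col1a2 at -2.83 ± 1.91 (adjusted p = 0.998). The part of these cell types in the values of Gdf9 and Tgfbr1 was not tested.

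Bulk granulosa samples, numbered 1 to 6 and 8 in the labels, averaged many more cells. Per the study's methods, some came from early antral follicles whose oocyte had been cut out first. Others came from follicles of unidentified stage that showed no oocyte in the section. Which sample was of which kind was not used here. In the bulk samples Bmpr1b averaged 9.08 ± 0.65, Bmpr2 8.06 ± 0.97, Tgfbr1 5.67 ± 1.32, Bmpr1a 5.55 ± 0.17 and Smad3 5.52 ± 0.85 (n = 7). Gdf9 had 28.1, 10.4, 268, 258, 79.2, 1.88 and 1.83 RPM, high in samples 3 and 4, where the oocyte-marker sums were also highest (1182 and 1233 RPM, against 104.4 to 684 in the others). Bmp6 had 22.7, 20.1, 8.93, 23.6, 22.1, 15.0 and 32.7 RPM, and its lowest value fell in sample 3, where Gdf9 was highest.

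Laser capture and dissociation were compared within 1 mouse. Gdf9 averaged 12.34 ± 0.66 in 8 captured and 12.39 ± 0.26 in 14 dissociated oocytes, Bmp15 10.84 ± 0.65 and 11.42 ± 0.29, and Bmp6 6.48 ± 0.72 and 7.09 ± 0.30. Tgfbr1 was higher in captured oocytes by 1.15, beside 21.9% of genes, and Smad2 was lower by 1.05 without overlap (6.39 ± 0.46 and 7.44 ± 0.27), beside 3.58% of genes. In granulosa cells, Bmpr1b was higher by 2.76 after capture, with 42 of 70 captured cells above every dissociated cell. Bmpr1a, Smad3 and Bmpr2 were higher by 1.24, 1.19 and 1.17 there and Bmp15 lower by 1.10, beside 15.1% of genes higher and 18.4% lower. The captured and dissociated cells came from different ovaries, DRaqL was used on the captured cells alone, the dissociated cells were isolated in medium with a cAMP analog, and the oocyte labels differ (secondary-antral and grown). Capture, lysis, medium, ovary and stage therefore cannot be told apart.

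The mESCs gave the members in a cell type outside the ovary. Bmpr1a averaged 5.27 ± 1.68 in fresh and 4.49 ± 2.20 in captured cells, Smad2 4.80 ± 1.36 and 4.53 ± 1.96, Tgfbr1 4.04 ± 2.14 and 2.99 ± 2.15, and Smad3 3.65 ± 1.84 and 2.89 ± 2.38. The ovarian receptor Bmpr1b averaged 0.30 ± 0.80 and 0.03 ± 0.13, and Bmp15 had reads in 3 of 45 and 2 of 36 cells. Of the 7 members compared, Tgfbr1 was lower by at least 1 in captured cells (1.05), beside 7.42% of genes.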

How the data were processed

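The deposited gene tables hold whole-number read counts. Per the labels' processing notes and the study's methods, the authors trimmed reads with cutadapt 1.16 and fastp 0.20.0, mapped them to GRCm38 by HISAT2 2.1.0, and counted them by HTSeq 0.10.0, assigning to a gene those near its annotated 3′ end (up to 10 kb). ERCC counts were deposited as tables of their own. The exon and junction counts came from featureCounts 2.0.1, run by the authors. Txndc5, Mmrn2, Unc5c and Aagab lie on the opposite strand overlapping or near Bmp6, Bmpr1a, Bmpr1b and Smad3, and the strand setting is not given in the sources used here, so reads of each pair may not be separable.

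RPM was taken over the reads of 22060 protein-coding genes, and noncoding genes held a median of 24.5% to 33.7% of reads in tables that list them. Genes above 4 on log2 (RPM+1) in at least 1 cell were compared. Pools were tested on counts with edgeR 4.0.16 (quasi-likelihood, TMM scaling, filterByExpr, R 4.3.3), and the script was first tested on simulated data. DESeq2 1.42.0, other scalings, filters, pseudocounts and left-out pools were alternatives. No libraries were identical. Besides the members, the text names pathway genes called in pools and, per role, those with the highest and lowest difference between oocytes and granulosa cells at a mean of at least 4, the 3 genes most like each ligand by Pearson r, and markers. The members and lists were chosen with earlier results of these data known. Other steps used Python 3.11.15. Libraries held 12748 to 17506401 reads. Poisson intervals cover counting error only, and Clopper-Pearson intervals treat cells as independent.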

Additional observations from a re-analysis of the deposited data

Results flagged for a closer look

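In groups of 4 to 10 samples, 20 of 81 sets of values (24.7%) held a sample far from the others by Dixon's criterion. That criterion flags about 1 in 20 sets of independent, normally distributed values. The levels here have a floor at 0 and the sets share libraries, so that rate need not hold. All levels are log2 (RPM+1). Several flagged values fell in the same libraries. The second primary oocyte with DRaqL and the SMART-Seq v4 kit had Gdf9 at 1.65 (1 read), Bmpr1b at 0, Tgfbr1 at 0 and Smad3 at 2.40, where the other 5 oocytes ran from 6.76 to 9.24, 7.57 to 9.77, 5.46 to 7.20 and 5.85 to 7.05. The first of these oocytes held the Bmp15 reads of the group, at 3.65. Among secondary-antral oocytes of that table, replicate 2 had Bmp6 at 3.41 and Smad3 at 4.34, and replicate 7 had Bmpr1b at 9.48.

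Non-neighboring pool 2 was low for Bmpr2 (2.26, others 6.85 to 8.41) and Bmpr1b (5.99) and high for Bmp15 (4.68, others 0 to 1.86). Neighboring pool 7 had Bmpr1a at 2.99. Bulk sample 2 had Tgfbr1 at 2.89 and Smad2 at 3.18. The third secondary-antral oocyte of formalin-fixed sections, with 188906 reads, had Bmpr2 at 2.65 and Smad2 at 3.53. In the single mouse, captured oocyte 8 had Gdf9 at 10.81 (others 12.16 to 12.94) and Bmp6 at 8.03 (others 5.67 to 6.77), and oocyte 3 had Smad3 at 5.53. Primary oocyte 4 with the SMART-Seq v4 kit had Smad2 at 2.65. Causes were not tested.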

How the results depend on the processing

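In the pools Gdf9 kept its direction in all 13 alternatives, with adjusted p from 7.9e-10 (DESeq2) to 0.0809. Leaving out one pool number at a time gave log2 fold changes of 5.93 to 6.59, 0 to 1 members called and 0.0512% to 0.353% of tested genes called, against 0.453%. DESeq2 called 1.2%, the test without a filter on low counts 0.294% and the test that kept noncoding genes 0.288%. Pools of the same number correlated at 0.0143 to 0.204 (2 of 7 above 0.1), beside a median of -0.0132 for pools of different numbers. By this measure 4 of 7 neighboring pools were most like the pool of their own number. Whether the numbers pair the pools was not tested, and the main test took the pools as unpaired. With the number as a replicate block, 0.0309% of genes (3) were called, Gdf9 among them. As ratios of summed RPM, 2 of 9 members differed by at least 1 between oocyte stages, Tgfbr1 by position turned to 0.0169, and Bmpr1a and Tgfbr1 between cell types turned to -0.71 and -1.87. A pseudocount of 10 left 2 of 9 members by position. Adding the 3 mixed cells changed no member's direction by position. TMM scaling moved the median gene by -0.22 between stages and by -0.15 between cell types, left 4 of 9 members at least 1 apart by stage, and changed no member's direction. Per ERCC read (chosen after seeing the data for stage and position), Bmpr2, Bmpr1a and Bmpr1b in formalin-fixed sections turned to 1.18, 0.19 and 0.61 by stage. By position in single cells, the Gdf9 difference was 1.02 with the SMART-Seq v4 kit and 0.79 with DRaqL and the kit. It was 2.83 with LCM-seq, 1.38 with DRaqL-Smart-seq2 and 1.29 in formalin-fixed sections. Members higher beside the oocyte by at least 1 numbered 1, 0, 2, 2 and 1 in that order. Between cell types Bmpr2 turned to 1.88 with the SMART-Seq v4 kit, Bmpr2 and Bmpr1b to 1.11 and 2.52 with DRaqL and the kit, and Bmpr2, Bmpr1b and Tgfbr1 to 0.51, 1.06 and 1.47 in formalin-fixed sections. The cause of these changes was not tested. Depth limits low members most in granulosa cells, where 1 read was a large step in a library of 12748 reads.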
